A study of Mus musculus with 24 samples.

Results

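The immunoproteasome and peptide loading genes are 9 genes that make, trim and deliver peptides for MHC class I molecules: *Psmb8*, *Psmb9*, *Psmb10*, *Psme1*, *Psme2*, *Tap1*, *Tap2*, *Tapbp* and *Erap1*. They were chosen by name, with earlier results of these data known, and all 9 were found among the 13998 genes measured. Transcript tags were counted in hypothalamus of male F2 mice from a cross of the subcongenic strain B6.CAST-17.1 with C57BL/6J, with 12 *cast/cast* mice homozygous for a CAST segment of Chr 17 from 3.19 to 45.73 Mb and 12 *b6/b6* mice without it. All mice were *b6/b6* over the rest of the genome, descended from a single congenic male and several C57BL/6J females, and were 10 to 16 weeks old when phenotyping began. The *cast/cast* mice were those that ate most, and the *b6/b6* mice those that ate least, of a carbohydrate/protein (C/P) diet offered beside a fat/protein diet for 10 d, so genotype and selected intake cannot be told apart. Tissue was taken about 48 h after the diets were returned, following a period on chow.

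The proteasome is a barrel-shaped protease whose core cuts unneeded proteins into peptides. In immune cells, and in other cells exposed to interferon, 3 catalytic subunits of the core are exchanged for inducible ones, encoded by *Psmb8* (beta5i), *Psmb9* (beta1i) and *Psmb10* (beta2i), and the PA28 cap encoded by *Psme1* and *Psme2* opens the barrel. The peptides are pumped into the endoplasmic reticulum by the TAP transporter (*Tap1* and *Tap2*), trimmed there by the aminopeptidase ERAP1, and loaded onto class I molecules held at the transporter by tapasin (*Tapbp*). In healthy brain the inducible subunits are known for low expression, mainly in microglia and vessel cells. In these counts *Psmb10* was not low, since its *b6/b6* mean was above that of 70.5% of genes. Of the genes here, *Psmb8*, *Psmb9*, *Tap1*, *Tap2* and *Tapbp* lie in the C/P intake QTL interval of Chr 17 (26.08 to 45.12 Mb), and the other 4 lie on other chromosomes.

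In *cast/cast* mice *Psmb8* was lower and *Psmb9* was higher than in *b6/b6* mice. The genes lie on either side of *Tap1* and encode subunits of the same particle. The ratio of mean normalized counts was 7.52-fold in favour of *b6/b6* for *Psmb8* and 2.46-fold in favour of *cast/cast* for *Psmb9*. None of the other 7 genes met the call rule, which asked for *P* of at most 0.01 by limma and a ratio of means of at least 1.5. Of them, 1 (*Psme1*) had an unadjusted *P* under 0.05 by limma, as did 8.13% of all genes, and edgeR and DESeq2 called the same 2 genes and no other of the 9. By the same rule 1.49% of all genes were called (1.01% lower and 0.471% higher in *cast/cast* mice), 0.708% of the 13001 genes outside the segment and 26.8% of the 228 genes of the interval. Among the 5 members in the interval, 2 were thus called against an interval background of 26.8%, and 0 of the 4 outside it. The study's own list of differing genes, from the same mice, holds *Psmb8* and *Psmb9*, so these 2 calls are no independent support. The median log2 fold change of the 9 genes was 0.00, and that of all genes was -0.02.

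SAGE-Seq reads 1 tag of 27 bases per transcript, next to the site CATG closest to its 3′ end, so counts do not grow with transcript length. The deposited table gives no tag sequences. The tag expected for each gene was read from GENCODE vM21 transcripts (GRCm38) as the 3′-most CATG inside the deposited gene model. The 7 tags below are those of the genes in the interval, where a CAST base could alter the tag, and of 2 genes whose tag is also found elsewhere. Capitals mark the CATG site, and each sequence runs 5′ to 3′ along the transcript.
Psmb8: CATGaaggaagacggttgggtgaaagt
Psmb9: CATGaaccgagatggctctagtggggg
Tap1: CATGcacacacaaacctggtttatgtg
Tap2: CATGaggcctccagaccctgagcccct
Tapbp: CATGtgtctccctcgcggactaaagcc
Psme1: CATGgagatccgaaatgcttatgctgt
Psme2: CATGgtgctggacctgagggccttcta

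The *Psmb8* tag lies at chr17:34201185-34201211 on the plus strand, in the coding part of exon 6 of 6. The *Psmb9* tag lies at chr17:34182312-34182338 on the minus strand, also in coding sequence of exon 6 of 6. For *Psmb9*, the GENCODE transcript runs 112 bases past the deposited end and holds 1 further CATG site there. Tags from such a longer form may have been counted elsewhere or not at all, so the level of *Psmb9* could be understated. Whether the genotypes differ in this was not tested. The tags of *Tap1* (chr17:34197056-34197082) and *Tapbp* (chr17:33929103-33929129) lie in the 3′ UTR, and that of *Tap2* (chr17:34216089-34216115) spans the end of the coding sequence, all on the plus strand. The *Psme1* tag crosses the junction between exons 10 and 11, from chr14:55581117 to chr14:55581305, and occurs also in the transcript of *Gm7776*. The *Psme2* tag, at chr14:55587655-55587681 on the minus strand, occurs also in *Psme2b*. Counts of *Psme1* and *Psme2* are therefore uncertain, since their reads could be shared with these copies, whereas the other 7 tags were found in no other gene. Tags were matched to the C57BL/6J reference, and no CAST sequence was used here. Whether a CAST base in a tag or its CATG site altered a count was not tested, and the calls of interval genes were lower in *cast/cast* mice for 20.6% and higher for 6.14% of the genes tested.

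Each library held 7754202 to 13082873 tag hits, and 1 hit was worth between 0.787 and 1.27 normalized counts. Between the 276 pairs of libraries, chi-square divided by its degrees of freedom was at least 14.6. This is well above sampling noise, so no pair looked like repeat counts of the same library. That each library was a separate mouse rests on the colony numbers in the labels, not on this test. Over genes outside Chr 17, 4 libraries stood apart, namely *b6/b6* replicate 12, *cast/cast* replicate 6, *b6/b6* replicate 6 and *cast/cast* replicate 4, with median Spearman correlations with the other libraries of 0.872, 0.894, 0.902 and 0.925 against 0.935 to 0.967. The labels name no batch. The study number was 120.5 for the median *cast/cast* and 269.5 for the median *b6/b6* mouse. It was taken as a possible stand-in for the time of testing, which the labels do not state. For some genes, values are also given below without these 4 mice or with study number as a covariate. Of 15 hypothalamus markers 13 were in the table, with summed levels at the median mouse of 15621 (*b6/b6*) against 17797 (*cast/cast*) normalized counts, and none was called (limma, 0 of 13 at an unadjusted *P* under 0.05, and 0 by edgeR and DESeq2). The sums varied widely among mice, from 12082 to 29987 (*b6/b6*) and from 6526 to 34537 (*cast/cast*).

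*Psmb8*, at chr17:34198195-34201454 on the plus strand, encodes the inducible subunit with chymotrypsin-like activity. Its normalized counts in *b6/b6* mice ran from 37.1 through a median of 58.1 to 114.0 (mean 66.4 ± 26.3, SD, n = 12). In *cast/cast* mice they ran from 2.83 through 9.42 to 15.1 (mean 8.82 ± 4.10, SD, n = 12). Every *cast/cast* mouse was below every *b6/b6* mouse. Such a lack of overlap was found in 0.336% of all genes (0.279% with *cast/cast* below), among them 25 of the 228 genes of the interval and 0 of the 13001 outside the segment. The log2 fold change was -2.83 (SE 0.27, limma, *P* = 3.57e-11, adjusted *P* = 1.61e-08). The count rested on 41 to 122 tag hits per *b6/b6* mouse and 3 to 15 per *cast/cast* mouse, so differences among the *cast/cast* mice are near the limit of what the depth can show. In bulk tissue, fewer cells that express a gene and less RNA per cell cannot be told apart, here or for the genes that follow.

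*Psmb9*, at chr17:34182099-34187330 on the minus strand, encodes the inducible subunit that takes the place of beta1. By the tags counted, it was the least abundant of the 9 genes in *b6/b6* mice. Its normalized counts there ran from 3.15 through a median of 11.3 to 36.4 (mean 11.8 ± 9.01, SD, n = 12). In *cast/cast* mice the counts ran from 10.2 through 28.5 to 44.1 (mean 29.0 ± 10.8, SD, n = 12). The groups overlapped, and 4 of the 12 *cast/cast* mice were above every *b6/b6* mouse. The highest *b6/b6* value belonged to replicate 6 and the lowest *cast/cast* value to replicate 4, both among the libraries that stood apart. The next highest *b6/b6* value was 18.1. The log2 fold change was 1.39 (SE 0.31, limma, *P* = 0.000134, adjusted *P* = 0.0268), and 1.71 without the 4 libraries.

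*Psmb10*, at chr8:105935728-105938392 on the minus strand, encodes the inducible subunit that replaces beta2. It was measured at 163 through 462 to 691 normalized counts in *b6/b6* mice and at 115 through 430 to 848 in *cast/cast* mice. The groups lay over each other, with means of 415 ± 158 and 444 ± 223 (SD, n = 12 each). Its log2 fold change was 0.01 (95% confidence interval -0.60 to 0.61, limma, *P* = 0.982), so changes of up to about 0.6 either way remain compatible with the counts. The 2 lowest *b6/b6* and the 2 highest *cast/cast* values came from the libraries that stood apart, and without these 4 mice the log2 fold change was -0.42 (*P* = 0.136).

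**Figure D1:**
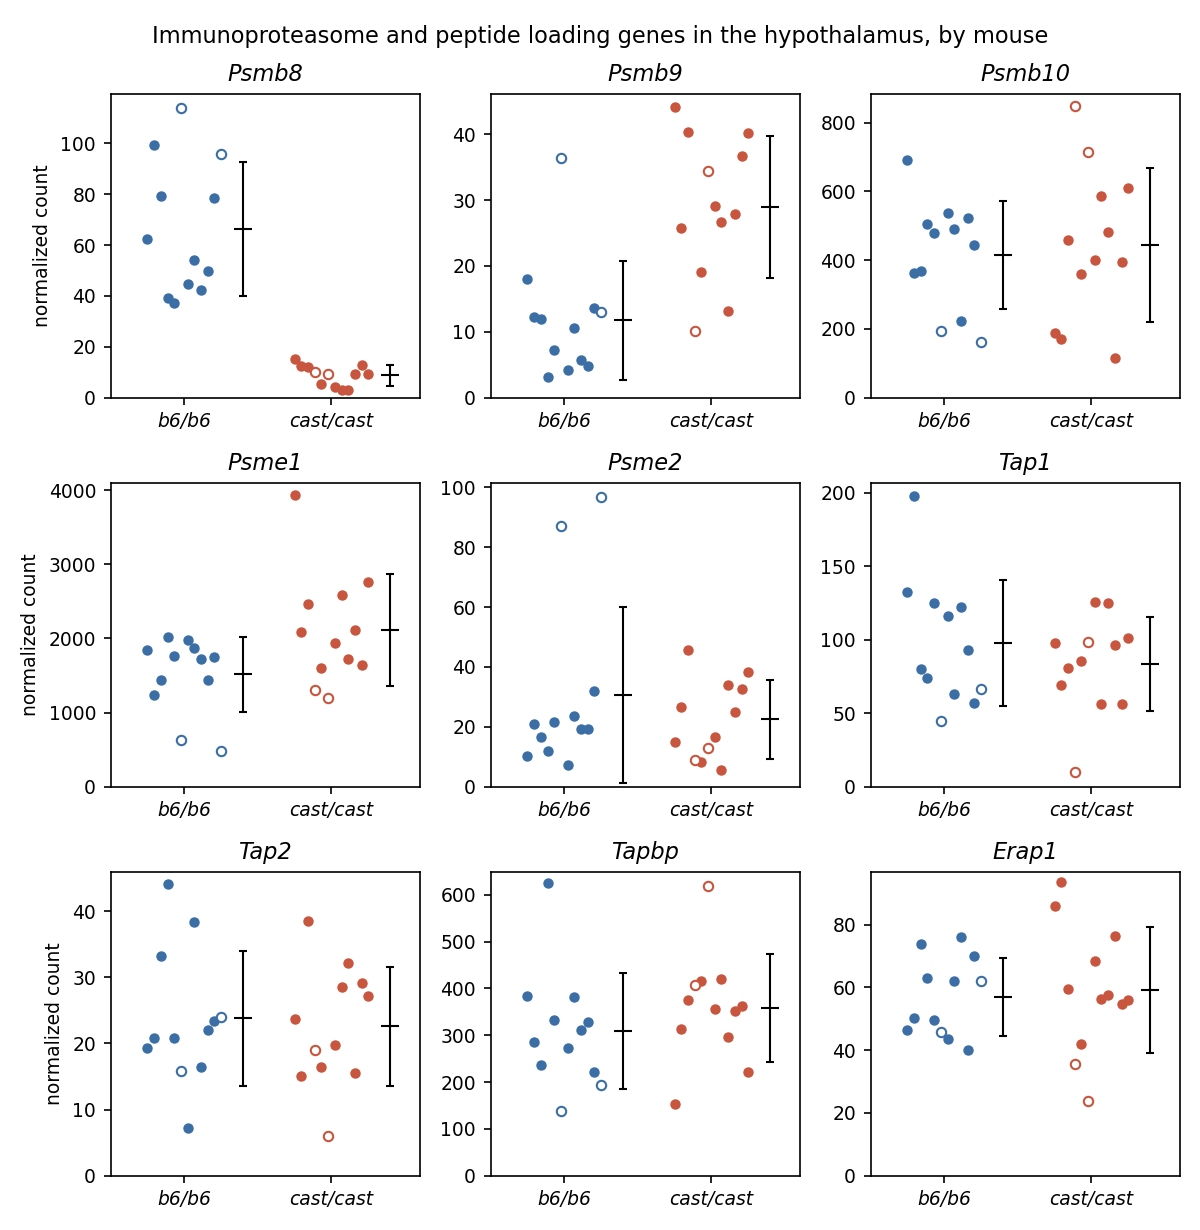
Normalized count (linear axis from 0) of each of the 9 genes in the 12 *b6/b6* (blue) and 12 *cast/cast* (red) mice; each point is a mouse, open points are the 4 libraries that stood apart, and the black mark with bars is the mean ± SD. *Psmb8* is separated between genotypes (37.1 to 114.0 against 2.83 to 15.1), *Psmb9* is shifted upwards in *cast/cast* mice with overlap, and the other genes overlap broadly.

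*Psmb8* and *Psmb9* differed between genotypes in opposite directions, and that contrast was expressed as a ratio within each mouse. The log2 ratio of *Psmb9* to *Psmb8*, each with 1 added, was -2.57 ± 0.54 (SD, n = 12) in *b6/b6* mice, from -3.28 to -1.62. In *cast/cast* mice it was 1.65 ± 0.72 (SD, n = 12), from 0.00 to 2.84. *Psmb8* was the more abundant of the pair in every *b6/b6* mouse, and *Psmb9* in 11 of 12 *cast/cast* mice, with equal counts of 10.2 in the other (replicate 4). The ratio differed by 4.22 (SE 0.26, permutation test, two-sided, *P* = 2e-05, as low as 100000 resamples allow, adjusted over 4 ratios *P* = 4e-05). This difference follows from the fold changes of both genes, which rest on the same counts, so it is no further support for them.

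**Figure D2:**
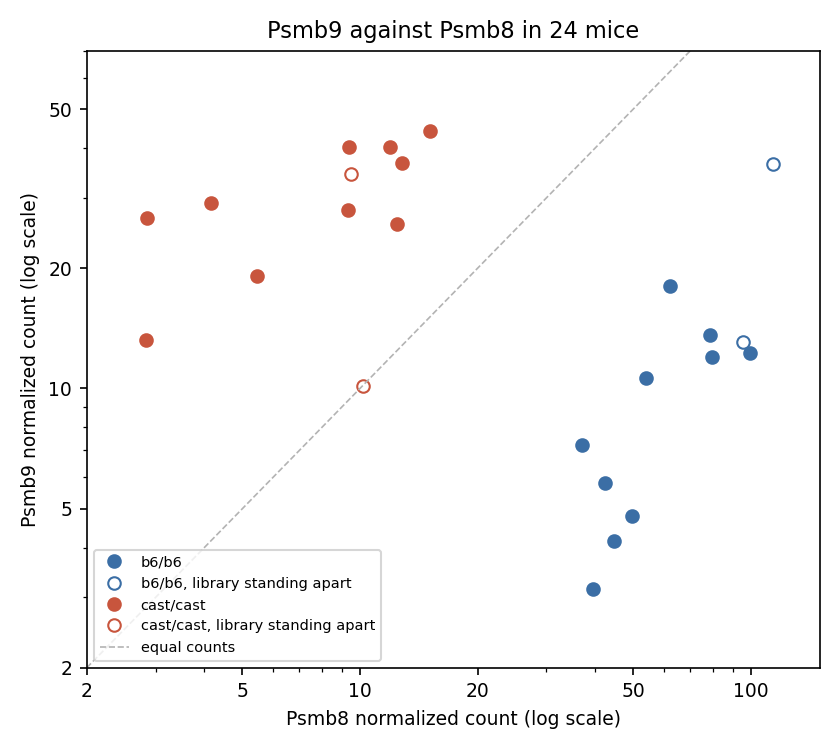
Normalized count of *Psmb9* against that of *Psmb8* (both axes logarithmic) in each of the 24 mice, blue for *b6/b6* and red for *cast/cast*, with open points for the 4 libraries that stood apart and a dashed line at equal counts. All 12 *b6/b6* mice lie below the line, 11 *cast/cast* mice lie above it and 1 lies on it.

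After the genotype mean was subtracted, log2 *Psmb8* and *Psmb9* correlated at Pearson *r* = 0.61 (permutation test within genotype, two-sided, *P* = 0.00125, adjusted over 36 pairs *P* = 0.0450) and Spearman rho = 0.66 (*P* = 0.00106, adjusted *P* = 0.0382) over 24 mice. Without the 2 mice farthest from the median of *Psmb8*, *r* was 0.64, and without the 4 libraries that stood apart it was 0.67 (adjusted *P* = 0.0151). Without *b6/b6* replicate 12 and *cast/cast* replicate 6 it was 0.60, with an adjusted *P* of 0.0612. Within the 12 *b6/b6* mice alone *r* was 0.82 (permutation test, *P* = 0.00095) and within the 12 *cast/cast* mice 0.45 (*P* = 0.140), and the difference between these was not tested. Of the other 35 pairs, only *Psmb10* and *Erap1* passed the adjusted threshold in all 24 mice, with a negative *r* of -0.62 (permutation test, *P* = 0.00270, adjusted *P* = 0.0486) and a Spearman rho of -0.60 (*P* = 0.00338, adjusted *P* = 0.0608). Without the 2 mice farthest from the median of *Psmb10*, *r* of that pair was -0.63. Without *b6/b6* replicate 12 and *cast/cast* replicate 6 it was -0.62, with an adjusted *P* of 0.0612. Within the 12 *b6/b6* mice *r* of *Psmb10* and *Erap1* was -0.33 (permutation test, *P* = 0.294). Within the 12 *cast/cast* mice it was -0.76 (*P* = 0.00487), and the difference was again not tested. Over all 36 pairs the median *r* was 0.01, with 19 positive values.

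The inducible subunits were compared with the constitutive subunits they replace, which were not called between genotypes. *Psmb5* (beta5) averaged 2179 ± 719 normalized counts in *b6/b6* mice, against 1980 ± 716 for *cast/cast* (log2 fold change -0.17, limma, *P* = 0.378). *Psmb6* (beta1) averaged 2617 ± 832 and 2595 ± 894 (-0.03, *P* = 0.860, and 0.28 without the 4 libraries that stood apart), and *Psmb7* (beta2) 680 ± 223 and 588 ± 311 (-0.34, *P* = 0.210, SD, n = 12 each). *Psmb8* amounted to 3.27% ± 1.40 (SD, n = 12) of the *Psmb5* count in *b6/b6* mice, from 0.992% to 5.33%. In *cast/cast* mice it amounted to 0.475% ± 0.222 (SD, n = 12), from 0.125% to 0.835%, and the groups did not overlap. On the log2 scale this ratio differed by -2.65 (SE 0.30, permutation test, two-sided, *P* = 2e-05, adjusted *P* = 4e-05). *Psmb9* amounted to 0.443% ± 0.245 of *Psmb6* in *b6/b6* mice and 1.17% ± 0.503 in *cast/cast* mice (SD, n = 12 each), a log2 difference of 1.42 (SE 0.29, permutation test, *P* = 6e-05, adjusted *P* = 8e-05). *Psmb10* stood at 70.3% ± 49.6 and 113% ± 96.8 of *Psmb7*, which did not differ beyond the spread between mice (log2 difference 0.35, SE 0.49, permutation test, *P* = 0.486). The *Psmb10* percentage ran from 21.8% to 209% (*b6/b6*) against 11.5% to 294% (*cast/cast*), and it exceeded *Psmb7* in 2 and in 6 of 12 mice.

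**Figure D3:**
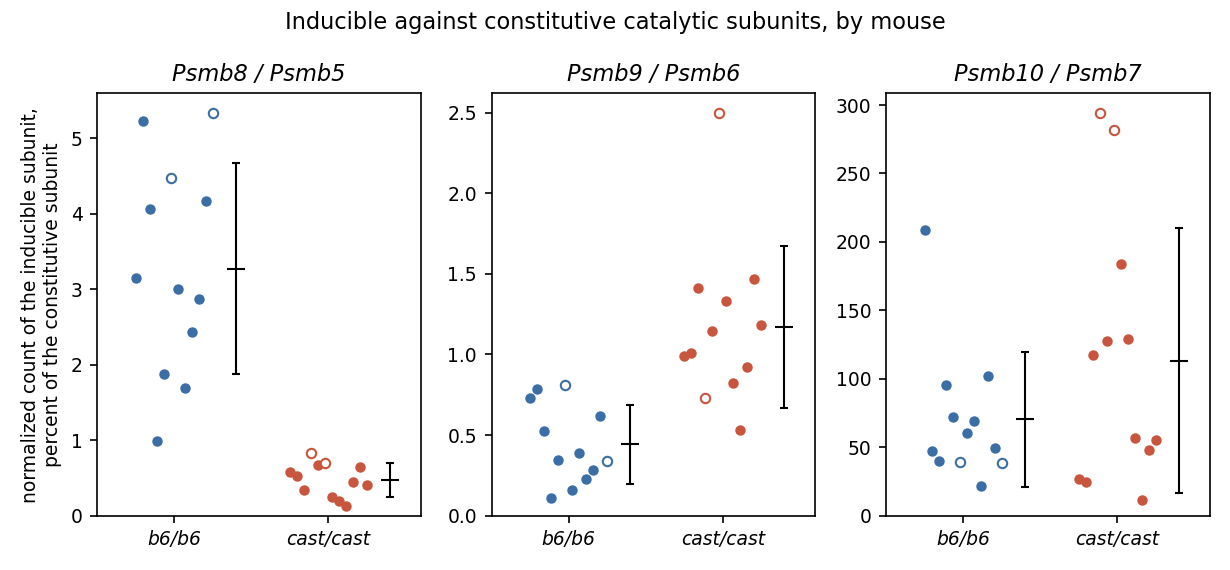
Normalized count of the inducible subunit as a percent of that of the constitutive subunit (linear axes from 0) for *Psmb8*/*Psmb5*, *Psmb9*/*Psmb6* and *Psmb10*/*Psmb7* in each mouse, with the mean ± SD in black and open points for the 4 libraries that stood apart. The first ratio falls from a mean of 3.27% in *b6/b6* to 0.475% in *cast/cast* mice, the second rises from 0.443% to 1.17%, and the third overlaps between genotypes.

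The PA28 cap genes lie next to each other on Chr 14, outside the segment. *Psme1* (PA28 alpha), at chr14:55578494-55581527, was the most abundant of the 9 genes, with 487 through 1732 to 2025 normalized counts in *b6/b6* mice and 1202 through 2016 to 3931 in *cast/cast* mice. The means were 1514 ± 505 and 2113 ± 753 (SD, n = 12 each), a ratio of 1.40, and the log2 fold change was 0.52 (95% confidence interval 0.05 to 0.98, limma, *P* = 0.0302, adjusted *P* = 0.587). It was not called. The 2 lowest values of each genotype came from the 4 libraries that stood apart, and without these the log2 fold change was 0.38 (*P* = 0.0159). With study number as a covariate it was 0.63 (limma, *P* = 0.00726), which is more than 1.5-fold. The call rule there still used the ratio of unadjusted means, 1.40, and by that ratio *Psme1* was not called. *Psme2* (PA28 beta), at chr14:55587440-55591101, ran from 7.26 through 20.1 to 96.8 normalized counts in *b6/b6* mice, and for *cast/cast* from 5.72 through 20.7 to 45.8. The 2 highest *b6/b6* values, 86.9 and 96.8, were those of replicates 6 and 12. Its log2 fold change was -0.25 (SE 0.39, limma, *P* = 0.524), and without the 4 libraries it was 0.30 (*P* = 0.381), so no direction can be given. *Psme3*, the nuclear cap subunit, was level at 1668 ± 311 and 1729 ± 387 (SD, n = 12 each, log2 fold change 0.04, limma, *P* = 0.771).

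The transporter genes *Tap1* (chr17:34187556-34197225) and *Tap2* (chr17:34204479-34216321), both on the plus strand, flank *Psmb8* and were not called. *Tap1* ran from 44.9 through 86.5 to 198 normalized counts in *b6/b6* mice, and for *cast/cast* from 10.2 through 90.8 to 126, and the single low *cast/cast* value was that of replicate 4. The log2 fold change was -0.29 (95% confidence interval -0.92 to 0.34, limma, *P* = 0.350), and -0.04 without that mouse. *Tap2* ran from 7.26 through 21.4 to 44.1 and from 5.93 through 21.7 to 38.5, with a log2 fold change of -0.07 (95% confidence interval -0.62 to 0.48, limma, *P* = 0.786). The fold change of *Tap2* was 0.07 without the 4 libraries that stood apart. Both intervals end well short of the *Psmb8* difference of -2.83.

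*Tapbp*, at chr17:33919478-33929290 on the plus strand, lies 253 kb from the *Psmb9*-to-*Tap2* block. It ran from 138 through 299 to 626 normalized counts in *b6/b6* mice, and for *cast/cast* from 153 through 359 to 620 (log2 fold change 0.23, 95% confidence interval -0.20 to 0.66, limma, *P* = 0.279). Without the 4 libraries its log2 fold change was -0.04, so its sign depends on them. *Erap1*, at chr13:74639872-74691875 on the plus strand, ran from 40.2 through 56.2 to 76.2 and from 23.7 through 56.9 to 93.5. Its log2 fold change was 0.00 (95% confidence interval -0.39 to 0.39, limma, *P* = 0.997), the narrowest interval of the 9 genes. The GENCODE transcript of *Erap1* runs 1326 bases past the deposited gene model, with 6 CATG sites there, so tags from a longer form may have been counted elsewhere or not at all.

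In *b6/b6* mice the order by mean normalized count was *Psme1* (1514), *Psmb10* (415), *Tapbp* (309), *Tap1* (97.7), *Psmb8* (66.4), *Erap1* (56.9), *Psme2* (30.5), *Tap2* (23.8) and *Psmb9* (11.8). The ranges of each neighbouring pair in this order overlapped. Within a mouse, *Psme1* exceeded *Psmb10* and *Tapbp* exceeded *Tap1* in 12 of 12 mice, and *Tap2* exceeded *Psmb9* in 11, whereas *Psme2* exceeded *Tap2* in only 5. In *cast/cast* mice *Psmb8* moved from rank 5 to rank 9 and *Psmb9* from rank 9 to rank 6. Spread among *b6/b6* mice was smallest for *Erap1*, with a coefficient of variation of 21.9%, and largest for *Psme2* at 96.5%.

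**Figure D4:**
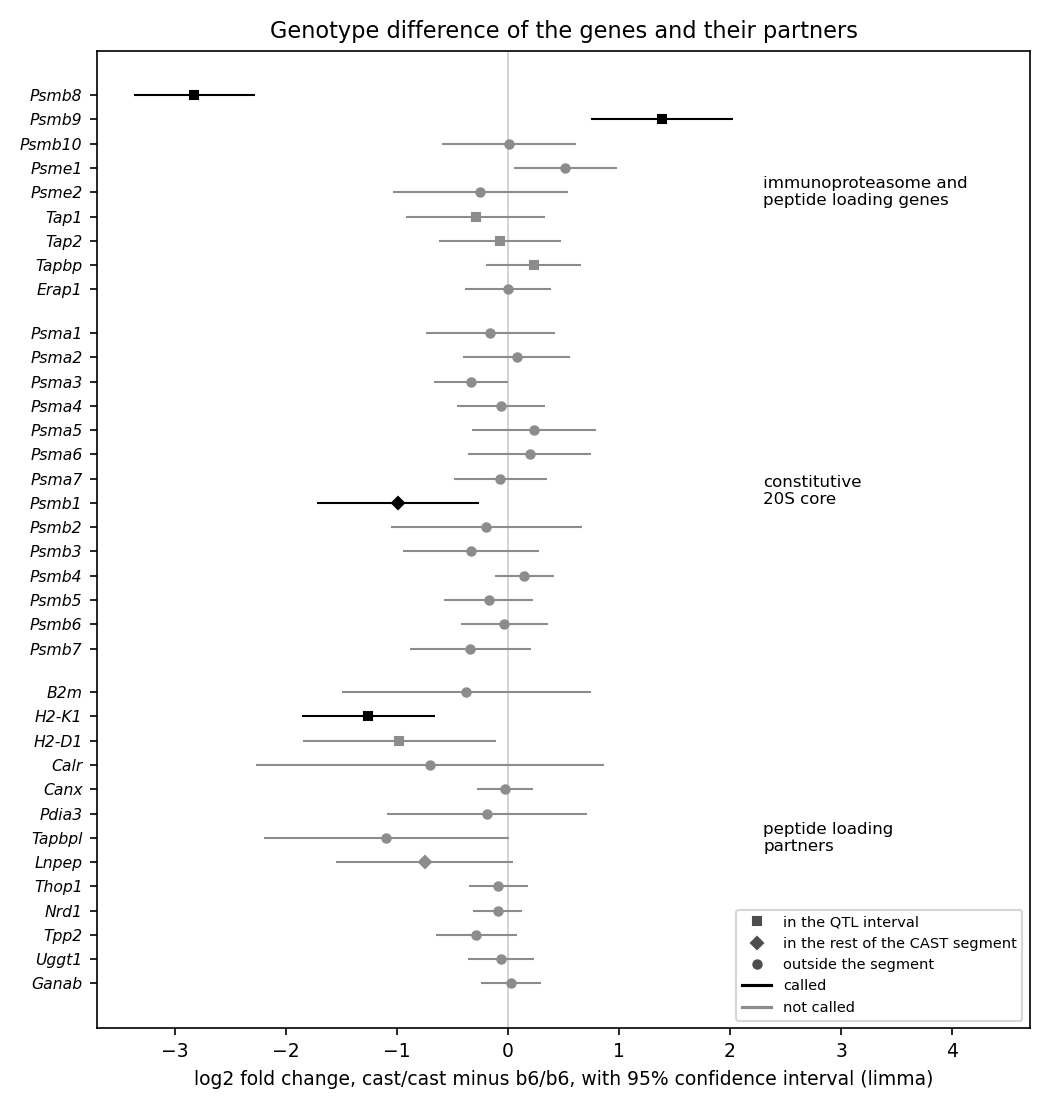
Log2 fold change (*cast/cast* minus *b6/b6*, limma) with its 95% confidence interval for the 9 genes, the 14 genes of the constitutive core and 13 partners in peptide loading. Squares lie in the QTL interval, diamonds in the rest of the CAST segment and circles outside it, and black marks the 4 genes called, *Psmb8*, *Psmb9*, *Psmb1* and *H2-K1*.

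*Psmb9*, *Tap1*, *Psmb8* and *Tap2* fill a block of 34.2 kb. *Psmb9* and *Tap1* are read in opposite directions from starts 225 bases apart, *Psmb8* begins 969 bases after the end of *Tap1*, and *Tap2* begins 3024 bases after the end of *Psmb8*. Along the block the log2 fold changes were thus 1.39, -0.29, -2.83 and -0.07. Within 300 kb of the *Psmb9* and *Tap1* starts 29 genes were tested, of which 9 were called lower and 4 higher in *cast/cast* mice. Both directions occurred among close neighbours elsewhere in this window too, as the plot by distance shows. The other called genes lay 98 kb or more from the starts, the nearest being *H2-Aa*, a class II gene, with a log2 fold change of -5.90.

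**Figure D5:**
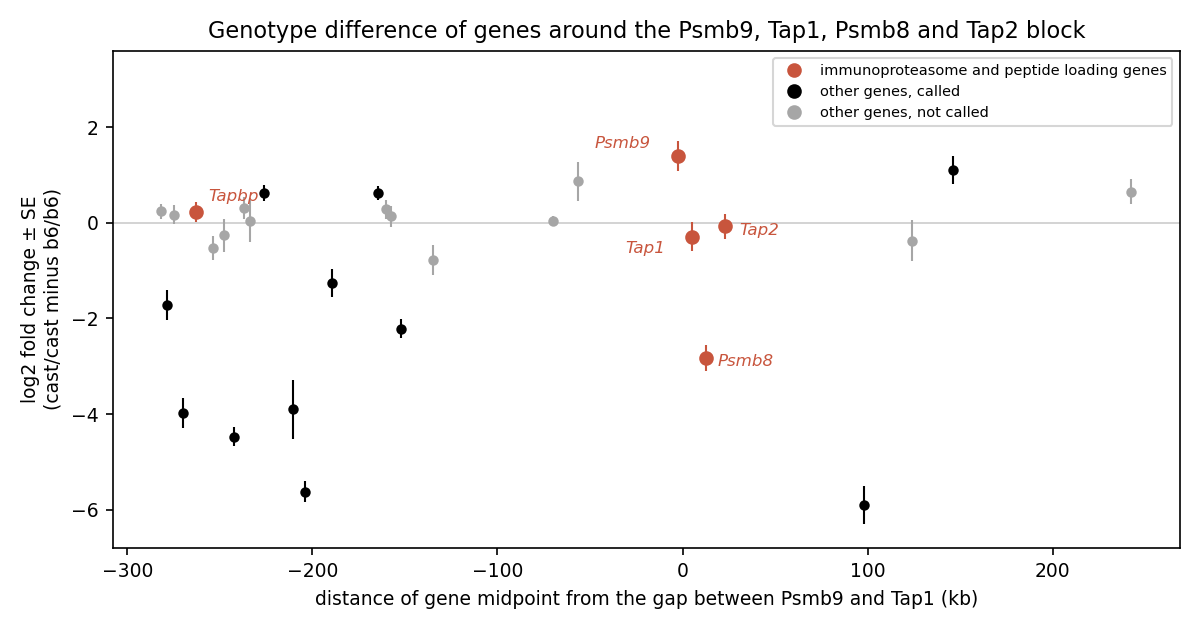
Log2 fold change ± SE (*cast/cast* minus *b6/b6*, limma) of the 29 genes tested within 300 kb of the *Psmb9* and *Tap1* starts, by distance of the gene's midpoint in kb. The 5 immunoproteasome and peptide loading genes of the interval are red; *Psmb9* (1.39) and *Psmb8* (-2.83) sit on either side of *Tap1* (-0.29), and other called genes are black.

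Promoter windows of 300 bases (250 before to 50 after the start, RefSeq, GRCm38.p6) were available for 8 of the 9 genes, all but *Tap2*, and were searched on both strands. A member was counted when any window of it matched, whereas the background is a share of single windows, so the 2 are not strictly alike. The interferon-stimulated response element, taken as GAAA, any 2 bases and GAAA, was found in the windows of *Psme1* and *Erap1* and in 3.44% of all 32851 windows. The gamma-activated site TTCNNNGAA was found in that of *Psmb8* and in 8.30% of all, and the TATA box TATAAA likewise in that of *Psmb8* and in 13.6%. The GC box GGGCGG was found for 6 of the 8 genes against 35.7% of all windows, and CCAAT for 3 (*Psmb9*, *Tap1* and *Tapbp*) against 37.4%. The windows of *Psmb9* and *Tap1* overlap, so their matches are partly the same letters.

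The constitutive core of the proteasome was measured by 14 genes, of which 1, *Psmb1* (beta6), was called lower and none higher. *Psmb1* lies in the CAST segment outside the QTL interval and averaged 3685 ± 1928 normalized counts in *b6/b6* mice, against 2076 ± 1132 for *cast/cast* (SD, n = 12 each, log2 fold change -0.99, limma, *P* = 0.00943, adjusted *P* = 0.482). It was not called by edgeR or DESeq2, nor when *b6/b6* replicate 2, 3, 4, 5, 7, 8, 9 or 11 or *cast/cast* replicate 4, 5, 6 or 8 was left out, with log2 fold changes of -1.02 to -0.82 in those fits. Nor was it called by limma with study number as a covariate (*P* = 0.0124) or without the 4 libraries that stood apart (log2 fold change -0.77, *P* = 0.0189). The median log2 fold change of the 14 genes was -0.11. Of 8 assembly and activator genes none was called by limma, edgeR or DESeq2, and 1 had an unadjusted *P* under 0.05 by limma. It was *Pomp*, the assembly chaperone (7036 ± 1285 against 8828 ± 2362 normalized counts, log2 fold change 0.30, limma, *P* = 0.0445), followed by *Psmf1*, an inhibitor (-0.19, *P* = 0.344).

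Of 13 partners in peptide loading, 1 was called lower and none higher. This was *H2-K1*, a class I heavy chain in the interval, at 130 ± 76.1 normalized counts in *b6/b6* mice, against 57.6 ± 47.4 for *cast/cast* (SD, n = 12 each, log2 fold change -1.26, SE 0.29, limma, *P* = 0.00021, adjusted *P* = 0.0398). It kept its call in every alternative fit and without any single mouse, but class I genes are close copies of each other, and whether its tag is shared with another of them was not tested, so its count is uncertain. edgeR added *H2-D1*, another class I heavy chain (log2 fold change -0.98, limma, *P* = 0.0289), which limma called too with study number as a covariate, and DESeq2 added *Tapbpl*, a tapasin relative (-1.10, limma, *P* = 0.0515). *B2m*, the light chain of class I molecules, averaged 1874 ± 1072 and 2022 ± 1485 (log2 fold change -0.38, limma, *P* = 0.498), with the means and the log2 values differing in sign. Without the 4 libraries that stood apart its log2 fold change was 0.18. The median log2 fold change of the 13 genes was -0.28.

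Genes that induce antigen processing were not called. Of the 17 listed, 16 were measured, none was called by limma, edgeR or DESeq2, and 1 had an unadjusted *P* under 0.05 by limma. It was *Ifngr2*, an interferon gamma receptor chain (285 ± 64.4 against 224 ± 83.2 normalized counts, log2 fold change -0.40, limma, *P* = 0.0360), followed by *Stat2* (-0.54, *P* = 0.0524). *Irf1*, a transcription factor of the interferon response, averaged 83.8 ± 20.9 and 105 ± 49.7 (log2 fold change 0.18, limma, *P* = 0.482), and *Nlrc5*, the transactivator of class I genes, 37.1 ± 25.1 and 46.2 ± 23.8 (0.38, *P* = 0.251, SD, n = 12 each). Without the 4 libraries that stood apart, *Irf1* was at 0.52 (limma, *P* = 0.0203) and *Nlrc5* at 0.17. With study number as a covariate, *Irf1* was at 0.14 and *Nlrc5* at 0.62 (limma, *P* = 0.0334). Neither was called in these fits. Of 28 interferon-stimulated genes 19 were measured, and none was called by limma, edgeR or DESeq2 or had an unadjusted *P* under 0.05 by limma. The lowest were *Oasl2* (log2 fold change 0.46, limma, *P* = 0.0578, and 0.0491 by edgeR and 0.0415 by DESeq2) and *Ifit3* (0.50, *P* = 0.0650), and the median of the 19 was -0.05.

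Markers of cells in which these genes are usually expressed were set beside the result. All 14 microglia markers were measured, with summed normalized counts of 5910 to 8040 (*b6/b6*) against 4641 to 8865 (*cast/cast*). None was called by limma, edgeR or DESeq2, and 3 had an unadjusted *P* under 0.05 by limma in mixed directions, namely *Tmem119* (log2 fold change -0.78, limma, *P* = 0.0268), *Aif1* (0.56, *P* = 0.0411) and *Fcer1g* (0.67, *P* = 0.0423). *Aif1* lies in the QTL interval, so a local effect of the CAST segment on it and a change in microglia cannot be told apart. Limma called *Tmem119* lower without *cast/cast* replicate 6 (log2 fold change -0.92) and *Fcer1g* higher without *cast/cast* replicate 4 (0.84) and without the 4 libraries that stood apart (0.73). The 11 endothelial markers summed to 1765 to 3129 and 1688 to 3342, with none called or under 0.05 by limma and none called by edgeR or DESeq2 (lowest *Flt1*, -0.64, *P* = 0.0898, and *Kdr*, -0.51, *P* = 0.265). Of 12 lymphocyte and myeloid blood cell markers, *Ptprc* (log2 fold change -0.21, limma, *P* = 0.521) and *Cd79a* (0.52, *P* = 0.107) were measured, neither called by any of the tools. The other 10, among them the T cell genes *Cd3e*, *Cd4* and *Cd8a*, were not listed in the table. Summed hemoglobin gene counts (3 of 7 genes) ran from 121 through 527 to 4999 in *b6/b6* mice, and for *cast/cast* from 105 through 255 to 782. None of the 3 was called by limma, with 1 under 0.05 (*Alas2*, log2 fold change -0.92, *P* = 0.0456, then *Hba-a2*, -0.92, *P* = 0.0602), and edgeR and DESeq2 each called *Hba-a1* and *Hba-a2* lower. The part of blood in the *Psmb8* and *Psmb9* differences was not tested.

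Among markers of tissue next to the hypothalamus, *Tcf7l2*, one of 7 thalamus markers, was called lower (206 ± 138 against 105 ± 57.9 normalized counts, SD, n = 12 each, log2 fold change -0.84, limma, *P* = 0.0071, adjusted *P* = 0.449). It was also called by edgeR and DESeq2, but not with study number as a covariate, nor when *b6/b6* replicate 2, 4, 5, 7, 8 or 10 or *cast/cast* replicate 1, 2, 3, 7, 10 or 12 was left out, with log2 fold changes of -0.82 to -0.69 in those fits. The summed thalamus markers ran from 1710 to 3830 in *b6/b6* mice, and for *cast/cast* from 883 to 4158. *Cplx1* alone averaged 1996 (*b6/b6*) and 1623 (*cast/cast*), so this sum mainly follows a single gene. No choroid plexus marker (5 of 7 measured) or pituitary marker (3 of 7) was called by limma, edgeR or DESeq2, and none had an unadjusted *P* under 0.05 by limma, whereas *Ttr*, a choroid plexus marker, had *P* = 0.0293 by edgeR and 0.0159 by DESeq2. Summed choroid plexus counts were 559 to 1663 and 367 to 1286, and the lowest limma *P* belonged to *Kl* (-0.18, *P* = 0.230) and *Clic6* (-0.31, *P* = 0.233). Most of that sum was *Enpp2*, with means of 790 (*b6/b6*) and 697 (*cast/cast*), against 17.4 and 41.2 for *Ttr*. Summed pituitary counts were 0 to 471 and 0 to 283, and the lowest limma *P* belonged to *Gh* (-0.72, *P* = 0.527) and *Fshb* (-0.30, *P* = 0.729). Their part in the *Psmb8* and *Psmb9* differences was not tested.

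C/P intake over 10 d was compared with each of the 9 genes within each genotype, since the mice were selected on intake. None of the 18 correlations passed adjustment. Pearson *r* ran from -0.40 (*Psme1*, *cast/cast*) to 0.49 (*Psme1*, *b6/b6*), with the lowest permutation *P* at 0.118 and every adjusted *P* at 0.928. The value of 0.49 turned to -0.15 without the 2 mice farthest from the median intake, and its rank correlation was -0.18. The rank correlation of *Psme1* with intake in *cast/cast* mice was -0.63 (permutation test, *P* = 0.0309, adjusted *P* = 0.556). For *Psmb8*, *r* was -0.17 (*b6/b6*) and -0.18 (*cast/cast*), and for *Psmb9* -0.10 and -0.30, with 12 mice each. Without the 2 farthest mice, that of *Psmb8* was 0.37 (*b6/b6*) and -0.37 (*cast/cast*), so no direction can be given. Within a genotype the intake range had been narrowed by selection.

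The genes most like each member among mice, by Pearson *r* of log2 counts with the genotype mean subtracted, were taken from 11994 genes over 24 mice as a description. For *Psmb8* they were *A2m* (0.69), *Rnf213* (0.67) and *Mgp* (0.65), and for *Psmb9* *Cdc42se1* (0.76), *Gpx8* (0.73) and *Cd63* (0.71). For *Psmb10* they were *E330013P04Rik* (0.87), *Krt17* (0.86) and *Pi4ka* (0.86), for *Psme1* *Rpain* (0.95) and *Ndufa5* (0.94), and for *Psme2* *Trpv2* (0.90), *Acsbg1* (0.90) and *Fez1* (0.89). For *Tap1* they were *Gpx1* (0.81), *Cmas* (0.80) and *Vps45* (0.79), for *Tap2* *Tor1a* (0.72), *Clasrp* (0.72) and *Gtf3c1* (0.71), for *Tapbp* *Cry1* (0.89), *Jazf1* (0.89) and *Qser1* (0.88), and for *Erap1* *Snrnp40* (0.90), *Crtac1* (0.89) and *Paip2* (0.88). The points share library size factors and the 4 libraries that stood apart. Without those, *r* fell for 24 of the 27 pairs computed, to as little as 0.50 for *Psmb9* with *Cd63*.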

How the data were processed

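Hypothalamus SAGE-Seq libraries of 24 mice were used. The deposited signal values are tag hits per gene aligned by the authors, with SOLiD SAGE Analysis Software in modified form, to mRNAs of RefSeq and build GRCm38 (mm10), then scaled with size factors from DESeq. The authors also deposited means, the fold change (ratio), its log2 value and the p-value of DESeq, plain and adjusted, none of which was used. Its 19529 rows cover 13998 genes, and duplicate rows were identical. In every library 100% of values were whole multiples of 1 step (tolerance 0.02), from which tag hits were recovered. The lowest mean was 6.03. The floor of 3 tag hits covers counting error only, since tags carry no molecular identifiers, whereas 95% confidence intervals of limma include the spread between mice.

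Genes were tested in limma 3.58.1 on log2(normalized count + 1) by lmFit and trended eBayes, with a minimum mean of 5, and called at unadjusted P of at most 0.01 with a ratio of means of at least 1.5 in the same direction. Adding 1 understates changes of low genes. Adjusted P is Benjamini-Hochberg over all genes. Ratios and correlations used permutation tests with 100000 resamples. The limma step was run on simulated counts. These had the same variability between mice for all genes and no libraries standing apart, unlike the data here.

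The members and gene lists were chosen with earlier results of these data known. Named were the 9 members, list genes called (or the 2 with the lowest P) and the fixed genes *Psmb5*, *Psmb6*, *Psmb7*, *B2m*, *Irf1*, *Nlrc5* and *Psme3*, and for each member the 3 genes with the highest r among genes with a mean of at least 20. Another 2 genes that this rule names are not reported here. *H2-D1*, *Tapbpl*, *Fcer1g*, *Hba-a1*, *Ttr* and *H2-Aa* were named after their values were seen. Alternatives were pseudocounts of 0.5 and 5, other minimum means, rescaled libraries, edgeR 4.0.16 and DESeq2 1.42.0 on tag hits, study number as a covariate, other call thresholds and mice left out. Python 3.11.15 and R 4.3.3 were used.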

Additional observations from a re-analysis of the deposited data

How the results depend on the processing

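The lower call of *Psmb8* and the higher call of *Psmb9* held in all 36 alternative settings, which counts every fit without a single mouse, with 1 member called lower and 1 higher in each. Without a minimum mean the fit was the same as the main fit, since the lowest mean was 6.03. An adjusted P of at most 0.05 and no minimum ratio only put other thresholds on the main fit, and dropping the ratio cannot lose a call. The log2 fold change ran from -2.93 to -2.35 for *Psmb8* and from 1.09 to 1.71 for *Psmb9*, whose adjusted P was at most 0.0778. The other 7 members were called in none of the settings. With study number as a covariate the ratio in the call rule stayed unadjusted, which kept *Psme1* (log2 fold change 0.63, limma, P = 0.00726) from being called. The sign changed in some fits for *Psmb10*, *Psme2*, *Tap2*, *Tapbp* and *Erap1*. The ratios of *Psmb8* to *Psmb5*, *Psmb9* to *Psmb6* and *Psmb9* to *Psmb8* kept their direction and stayed past the threshold in all 4 alternatives, and that of *Psmb10* to *Psmb7* did not pass it in any (-0.16 to 0.35). These ratios rest on the same member counts as the fits of single genes. Without any 1 mouse, counts ran from 97 to 169 genes lower and 48 to 86 higher. The counts over all genes (142 lower, 66 higher) moved most. They were 232 lower with study number as a covariate, 331 by edgeR and 313 by DESeq2. Fewer genes were higher with libraries rescaled to the same total (43), which moved the median log2 fold change of all genes from -0.02 to -0.11, and more without a minimum ratio (120), where fewer conditions apply. At an adjusted P of at most 0.05 there were 60 lower and 20 higher. The cause of the other shifts was not tested. The number of member pairs that correlated (2 of 36) was 4 with rescaled libraries and 0 without the 2 mice farthest from the others, and that of correlations with C/P intake was 0 throughout. Leaving out the 4 farthest mice, and the pair correlations without 2 or 4 mice, were chosen after seeing the data. No paired analysis was possible because the mice of the genotypes are different animals, and replicate numbers were given here in accession order, which ties no number across genotypes. Depth limits *Psmb8* in *cast/cast* mice (3 to 15 tag hits) and *Psmb9* in *b6/b6* mice (4 to 39).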
